A study of Mus musculus with 59 samples.

Results

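Histone H3 trimethylated at lysine 4 (H3K4me3) was compared between brainstem tumours of mice that carry the K27M change in histone H3.3 and tumours of mice that carry the tagged wild-type histone. The comparison used 5 of the 59 samples of the series, all of the H3K4me3 libraries with a peak list: K27M tumours 2 and 6 and WT tumours 7, 9 and 10. They were chosen by antibody, tissue and genotype, and peaks on the autosomes were kept. H3K27ac lists of 11 tumours, among them the same 5, served as a second readout. H3K27me3 was not part of the comparison.

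All tumours came from the same genetic background apart from the knock-in. The mice carried Nestin-creERT2, a tamoxifen-inducible Cre that is active in cells expressing the neural precursor gene Nestin, together with a Cre-activated PDGFRα transgene with the V544ins change (LSL-PDGFRαV544ins) and floxed alleles of the tumour suppressor gene Trp53 (Trp53flox/flox). The knock-in at H3f3a, the gene for H3.3, was LSL-K27M-Tag/+ in one group and LSL-WT-Tag/+ in the other, so both groups kept 1 unmodified allele, and the control tumours shared the PDGFRα and Trp53 lesions. Tumour 2 was labelled male and tumour 6 female in the K27M group. WT tumours 7 and 10 were labelled female and tumour 9 male. Age is not given in the sources used here. The tumours were snap frozen and were profiled as bulk tissue, in which a lower share of marked cells and less marking per cell cannot be told apart. The label of tissue could not be checked against marker genes, since no annotation of build mm9 was used.

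H3K4me3 is placed by the KMT2 and SET1 methyltransferase complexes and lies at the start sites of active and poised genes, mostly at CpG-rich promoters. Most promoters carry a peak of about the size of a few nucleosomes, and a small class carries broad domains over several kb, which in many cell types lie at genes of cell identity. The K27M change, known from diffuse midline gliomas of children, replaces lysine 27 of the histone tail and inhibits the Polycomb methyltransferase that writes H3K27me3. Lysine 4 lies on the same tail but is not altered by the knock-in. H3K27ac is a mark of active promoters and enhancers.

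The number and size of H3K4me3 peaks did not separate the genotypes. The autosomal lists held 33413 and 30680 peaks in K27M tumours 2 and 6, and 31572, 27686 and 31168 peaks in WT tumours 7, 9 and 10. Peaks covered 38.4 and 37.3 Mb in K27M, and 37.5, 33.3 and 38.8 Mb in WT. WT tumour 9 had the lowest value of both measures. The other 4 tumours lay close together in covered length and less so in peak number. K27M tumours averaged 32046.5 ± 1933 peaks (SD, n = 2) and WT tumours 30142 ± 2137 (SD, n = 3) (two-sided exact permutation test on log2 values, p = 0.6). The covered length averaged 37.8 Mb ± 0.760 (SD, n = 2) in the former, and in the latter 36.5 Mb ± 2.84 (SD, n = 3), which gave p = 0.9 by the same exact test. With 2 against 3 tumours this test cannot go below 0.1, so it could not have reached the threshold of 0.05. Nothing in the labels says that the tumours came from separate animals, although each has its own number, and the tests measure only how these samples vary. Total depth of the libraries is not given in the sources used here. A list can lengthen with depth.

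Peaks were then divided by width. Peaks under 1 kb numbered 19417 and 16833 in K27M, and 17560, 14916 and 17171 in WT. Peaks of 1 to 5 kb numbered 13740 and 13588 in K27M, and 13767, 12556 and 13629 in WT. Broad peaks of 5 kb or more numbered 256 and 259 in K27M, and 245, 214 and 368 in WT. The K27M tumours lay inside the WT range for broad peaks, and WT tumour 10 held more of them than any other tumour. Narrow peaks made up 58.1% and 54.9% of the K27M lists and 55.6%, 53.9% and 55.1% of the WT lists. Broad peaks made up 0.766% and 0.844% of the K27M lists and 0.776%, 0.773% and 1.18% of the WT lists, with a summed length of 1.61 and 1.65 Mb against 1.53, 1.35 and 2.34 Mb. The exact permutation test gave p = 0.6 for the number of narrow peaks, 0.9 for peaks of 1 to 5 kb and 1.0 for broad peaks. All 11 measures of number, share and length had an adjusted p of 1.0 (exact permutation tests, Benjamini-Hochberg), and none separated the groups.

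**Figure D1:**
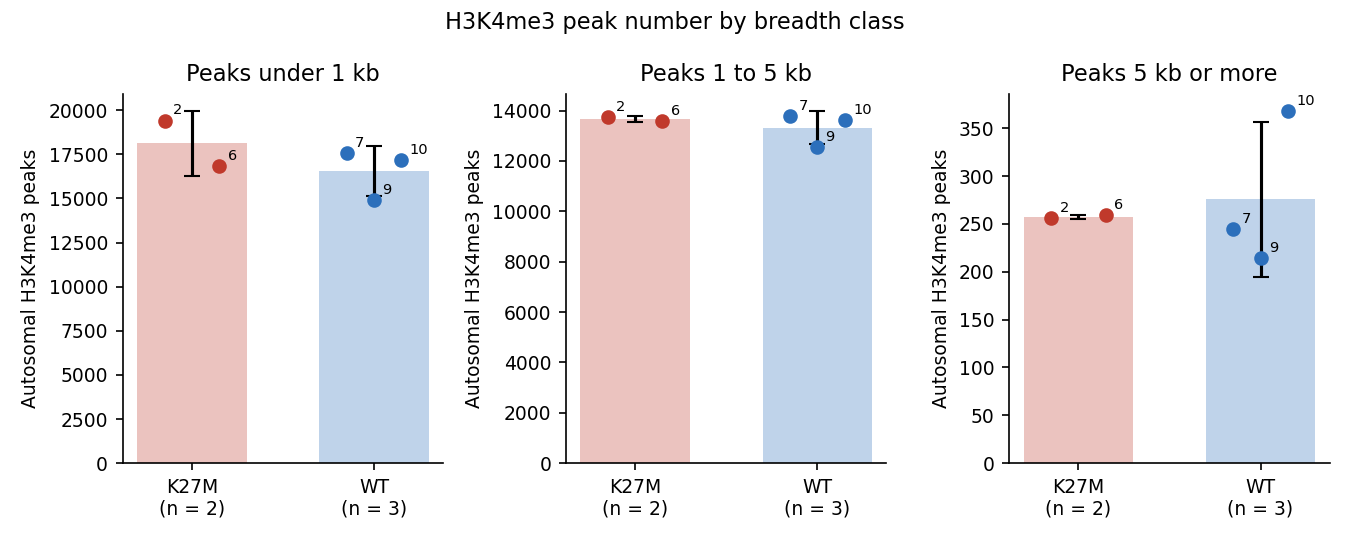
Number of autosomal H3K4me3 peaks in each breadth class (y axis) by genotype, with 1 point per numbered tumour and bars with error bars for mean and SD (n = 2 K27M, n = 3 WT). The genotypes overlap in every class, and WT tumour 10, with 368 broad peaks, stands above the other tumours, which hold 214 to 259.

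The widest peaks of a list depend on where a caller joins neighbouring signal. The single widest peak measured 17136 and 23155 bp in K27M, and 11609, 11548 and 24087 bp in WT, and these peaks do not all lie in the same region. Peaks were therefore merged over the 5 lists wherever they shared 1 bp. A region's covered length in a tumour is the number of its bases under peaks of that tumour. Of the regions called in all tumours, 14.3% and 12.3% were split into more than 1 peak in K27M, and 12.9%, 15.3% and 10.8% in WT (exact permutation test, p = 0.9).

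Merging gave 40273 autosomal regions, of which 19448 (48.3%) were called in all 5 tumours. A further 10433 were called in 1 tumour, 4223 in 2, 2977 in 3 and 3192 in 4. The common regions were the wide and strong ones. Their median width was 1767.5 bp, against 263 bp for regions of a single list. The strength of a region was taken as the percentile of its best peak within a list by -log10 q, where q is the authors' value for the peak, and the median percentile of common regions was 68.9 against 12.2 for single-list regions.

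Calls that followed genotype were a small share of all merged regions. H3K4me3 was called in both K27M tumours and in no WT tumour at 735 regions, which is 1.83% of all merged regions, and 206 regions (0.512%) showed the opposite, with a call in each of the 3 WT tumours only. These counts are not like for like, since the first asks for 2 calls and the second for 3. Another 3488 regions called in 2 lists and 2771 called in 3 lists did not follow genotype. Regions called in all 5 lists cannot be separated. Of the 4223 regions called in 2 lists, 735 fell on the K27M pair, and of the 2977 called in 3, 206 fell on the WT tumours. There are 10 possible pairs and 10 sets of 3. The first share lies above 1 in 10 and the second below. The lists differ in length, and these shares were not tested. By Fisher's exact test 0 regions (0.0%) passed after Benjamini-Hochberg adjustment and 0 had an unadjusted p under 0.05, because the smallest p that 2 against 3 calls allow is 0.1. The counts rest on every library. The K27M-only count was 2319 without K27M tumour 2, 3733 without tumour 6, 1332 without WT tumour 7, 918 without tumour 9 and 1249 without tumour 10. The WT-only count was 515, 520, 410, 788 and 475 without tumours 2, 6, 7, 9 and 10.

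The genotype-separated calls were narrow and weak. K27M-only regions had a median width of 430 bp, a median percentile of 20.2 and a median -log10 q of 7.48. WT-only regions had medians of 623 bp, 21.2 and 8.51. The other regions of 2 lists had a median width of 419 bp and the other regions of 3 lists 536 bp. The mean -log10 q was 10 or more at 25.4% of the K27M-only and 17.9% of the other 2-list regions. It was so at 37.9% of the WT-only and 31.9% of the other 3-list regions. By median percentile the K27M-only regions lay above the other 2-list regions, at 20.2 against 16.9. The WT-only regions did not lie above the other 3-list regions, at 21.2 against 21.6. These differences were not tested. The mean covered length over the calling tumours was 1 kb or more at 8 K27M-only and 9 WT-only regions. Every calling tumour reached 1 kb at 3 and 4 of them, at least 1 calling tumour did at 21 and 26, and 5 kb was reached by none. A common region lay within 1 kb of 15.8% of the K27M-only and 22.8% of the WT-only regions. K27M-only calls made up 0.975% of the merged regions on chromosome 18 and 3.00% on chromosome 14, the lowest and highest shares of the 19 autosomes, and WT-only calls 0.267% on chromosome 1 and 0.730% on chromosome 5.

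Regions are given by position in build mm9, counted from 1, and what gene or element lies there is not stated. The widest K27M-only call was chr1:14292415-14295729, with 3099 and 3290 bp covered in tumours 2 and 6, a fold enrichment at its strongest peak of 16.3 and 18.1, and no peak in WT. It lay 1.188 kb from a common region. H3K27ac marked it in 6 of 6 K27M tumours and in 1 of 5 WT tumours.

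Other K27M-only calls that were strong by -log10 q were shorter. At chr4:77164861-77165423 the covered length was 563 and 462 bp, with -log10 q of 98.5 and 38.1. Its fold enrichment of 8.96 and 5.74 lay below the medians of the lists of tumours 2 and 6, which were 9.13 and 10.8. H3K27ac lay there in 3 of 6 K27M and 0 of 5 WT tumours. At chr4:99111880-99112907 it was 1028 bp in tumour 2 but 256 bp in tumour 6, with -log10 q of 170.4 and 7.48, so that the call rested mainly on tumour 2. H3K27ac was present there in 5 of 6 K27M tumours and 1 of 5 WT tumours. On chromosome 10 a pair of neighbouring calls, chr10:45188840-45190514 (1675 and 1396 bp) and chr10:45192898-45193954 (1057 and 412 bp), both appeared in K27M alone, and H3K27ac was found at each in 1 of 6 K27M tumours and in no WT tumour. The remaining calls that the naming rule took were chr2:73901768-73902638, chr19:20084075-20085062 and chr8:111598854-111599630, with 293 to 988 bp covered, and H3K27ac marked the second of these in 3 of 6 K27M tumours and the other two in no tumour.

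The strongest WT-only call had a peak of like size in all 3 WT tumours. At chr2:38202767-38204173 the covered length was 1407, 1304 and 1205 bp in tumours 7, 9 and 10, the fold enrichment 21.2, 17.4 and 27.9, and no K27M tumour had a peak. A common region lay 1.655 kb away. At chr8:59799126-59801511 it was 2386, 1381 and 1761 bp, and at chr2:147190606-147192107 it was 1467, 629 and 1314 bp. H3K27ac was absent from all 6 K27M tumours at each of the 8 named WT-only calls, and was seen in 2 of 5 WT tumours at the first, at chr8:59799126-59801511 and at chr14:14765712-14766718, and in none at the other 5. Those 5 include chr3:151755276-151756099, chr6:6812513-6813114, chr10:50613939-50615019 and chr5:35730963-35731871, with 480 to 1081 bp covered. Of all 206 WT-only calls, 78 (37.9%) had no H3K27ac in any of the 11 tumours, so the named ones are not a measure of the whole set.

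A minority of the broad regions were broad in every tumour. At least 5 kb was covered in any tumour at 564 regions, and in all 5 tumours at 218 of them (38.7%). The number of such regions was 381 and 375 in K27M tumours 2 and 6, and 355, 331 and 454 in WT tumours 7, 9 and 10. Over the 218 shared regions the median covered length was 6483.5 and 6454 bp in K27M, and 6352.5, 6343 and 6654 bp in WT. The K27M medians lay between those of WT tumours 7 and 10. H3K27ac was called in all 11 tumours at 216 of the 218, or 99.1%, against 78.3% of the common regions with a mean covered length of 1 to 5 kb and 19.8% of those under 1 kb. A wide region offers more bases for an overlap, which these shares do not correct for.

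The widest region in all tumours was chr13:83857506-83881698, with 23462 and 23566 bp covered in K27M, and 21874, 21933 and 24087 bp in WT. It was 1 unbroken peak in WT tumour 10 alone and 2 to 4 peaks in the other tumours. Next came chr3:88008773-88026315, with 16302 and 16391 bp in K27M and 16398, 16995 and 16917 bp in WT. The groups overlapped at the first, and at the second the gap between them was under 10 bp. The others among the 10 widest were chr15:85499465-85513168, chr7:86643744-86657102, chr6:52106247-52119612, chr17:10503135-10515057, chr11:120089380-120101303, chr8:129107964-129120618, chr7:123172299-123184817 and chr8:10999370-11010362. By limma none of the 10 passed for covered length, with differences in log2 covered length between K27M and WT of -0.10 to 0.13 and adjusted p of 0.932 or more, and H3K27ac was present at all of them in all 11 tumours.

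In all, 16 regions were broad in every tumour of 1 genotype and in no tumour of the other, 8 in each direction. Each count is 1.42% of the 564 regions that were broad in any tumour, and 0.0199% of all merged regions. Of the 84 regions broad in exactly 2 tumours, 8 fell on the K27M pair, and of the 65 broad in exactly 3, 8 fell on the WT tumours. Both are near the 1 in 10 of an order without regard to genotype, so the counts are not read as a result about genotype. Most lay close to the limit. In 6 of the 8 regions broad in K27M only, the highest WT tumour came within 500 bp of 5 kb, and the same held for the highest K27M tumour in 8 of the 8 regions broad in WT only. A gap of 1 kb or more between the genotypes was seen at 2 regions of the first kind and 1 of the second. The counts moved to 21, 26 and 27 for K27M only when tumours 2, 6 and 10 were left out, and to 13, 25, 16 and 25 for WT only without tumours 2, 6, 7 and 9. When the widest single peak stood for the covered length, they were 10 and 2.

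The regions with such a gap are given in full. At chr19:25482901-25488931 H3K4me3 covered 5985 and 6031 bp in K27M tumours 2 and 6, and 3534 bp in WT tumour 7, 0 in tumour 9 and 381 bp in tumour 10. Nearly the whole region was marked in both K27M tumours, and WT tumours ranged from partly marked to unmarked. H3K27ac peaks covered a mean of 70.0% of its length in the 6 K27M tumours and 9.84% in the 5 WT tumours.

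At chr2:17966829-17972717 the covered length was 5791 and 5657 bp in K27M, and 3785, 3027 and 2928 bp in WT. This region kept a peak in every tumour and was longer in K27M by 0.80 on the log2 scale (SE 0.14, limma adjusted p = 0.478). H3K27ac was present in all 11 tumours and covered 83.4% of its length in K27M and 43.9% in WT. At chr13:40822937-40830226 the order was the opposite, with 4608 and 1430 bp in K27M, and 6309, 7060 and 7219 bp in WT. Tumour 6 carried the shortest mark, and tumour 2 lay nearer to the WT tumours. H3K27ac was called there in 1 of 6 K27M tumours and in 5 of 5 WT tumours, covering 0.503% and 70.3% of the length. The difference in log2 covered length was -1.45 (SE 0.51, limma adjusted p = 0.855).

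**Figure D2:**
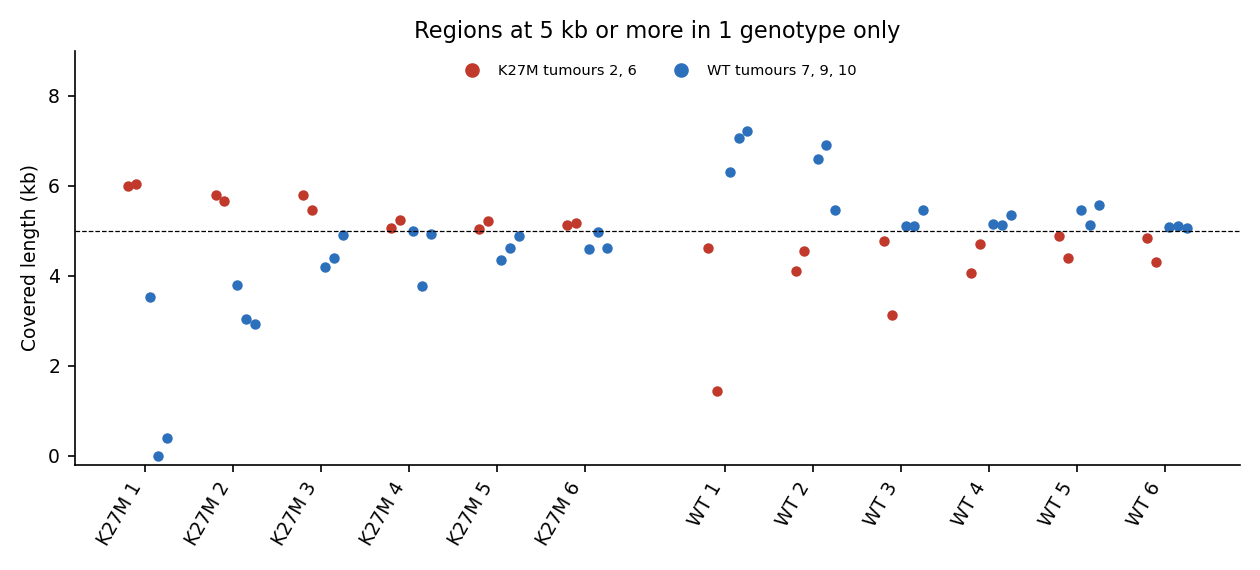
Covered length in kb (y axis) of the 6 leading regions in each direction that reach 5 kb (dashed line) in every tumour of 1 genotype and in none of the other, 1 point per tumour, ordered by the difference in mean. The first 2 regions of K27M and the first of WT show wide gaps between the colours, and in most of the others all 5 tumours sit between 4 and 6 kb.

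The common regions had much the same breadth in both genotypes. Of the 19448, 16188 (83.2%) fell into the same breadth class in all 5 tumours: 4552 under 1 kb, 11418 from 1 to 5 kb and 218 at 5 kb or more. A length of 1 kb or more was reached in both K27M and no WT tumour at 96 common regions (0.494%), and 45 (0.231%) reached it in each WT tumour but neither K27M tumour. Across regions the covered lengths of any pair of tumours had a Spearman correlation of 0.928 to 0.962, highest for the K27M pair. Regions are not independent and the lists share their genome and antibody, so this is a description.

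Covered length per common region was tested with limma on log2 values after subtracting each library's median, with adjustment over all 19448 regions. It called 0 regions (0.0%) at an adjusted p of 0.05, and the smallest adjusted p was 0.257. At an unadjusted p under 0.05 there were 1091 regions (5.61%), 573 longer and 518 shorter in K27M. The groups did not overlap at 2080 regions (10.7%) that were longer and 2185 (11.2%) that were shorter in K27M. Ranking the tumours without regard to genotype would set the K27M pair wholly above the WT tumours with a probability of 0.1, and likewise below. Both shares are near 0.1, so they are not read as a result about genotype. The central 95% of differences ran from -0.51 to 0.64 on the log2 scale, around a median of -0.0011.

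Among regions whose groups did not overlap, the naming rule took the 6 with the largest difference in each direction. At chr2:115894533-115898786 the covered length was 4254 and 4170 bp in K27M, and 1209, 533 and 1248 bp in WT, a log2 difference of 2.15 (SE 0.37, limma adjusted p = 0.478). H3K27ac lay there in 6 of 6 K27M and 2 of 5 WT tumours, over 67.4% and 2.247% of its length. At chr13:108913214-108914679 the values were 1237 and 1466 bp against 350, 376 and 237 bp, and H3K27ac was found in 6 of 6 and 1 of 5 tumours. In both regions the K27M tumours were close to each other and every WT tumour was far shorter.

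At chr6:5332779-5334380 the covered length was 1222 and 1288 bp in K27M and 289, 281 and 429 bp in WT, which gave the smallest adjusted p among the regions longer in K27M (log2 difference 1.91, SE 0.19, limma adjusted p = 0.257). H3K27ac was seen there in 6 of 6 and 2 of 5 tumours. The remaining regions of this direction were chr4:152853992-152857648, chr12:34612577-34614126 and chr6:51798338-51800428. There H3K27ac was less separated, in 4, 0 and 5 of 6 K27M tumours and in 2, 0 and 3 of 5 WT tumours. At the first of these 3 regions it covered 18.8% of the length in K27M and 17.5% in WT. The covered length of H3K4me3 at that region spread widely, with 3657 and 3047 bp in K27M and 708, 2129 and 205 bp in WT. Its SE was 1.03.

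In the other direction, chr19:29397735-29399837 had 296 and 405 bp in K27M, and 1758, 1554 and 1626 bp in WT, a log2 difference of -2.28 (SE 0.15, limma adjusted p = 0.257). At chr6:30123168-30124637 it was 310 and 283 bp against 1070, 1178 and 1401 bp, a log2 difference of -2.06 (SE 0.14, limma adjusted p = 0.257). The WT tumours were tightly grouped at both, and H3K27ac was absent from all K27M tumours there and present in 2 of 5 and 0 of 5 WT tumours. The other regions shorter in K27M were chr2:156894454-156896728, chr4:21605551-21607099, chr14:56226107-56227225 and chr7:53175166-53176874. At the first and last of these H3K27ac was present in all 11 tumours, over 99.6% and 76.4% of the length in K27M and 99.5% and 92.3% in WT. At chr4:21605551-21607099 it was called in no tumour, and at chr14:56226107-56227225 in 0 of 6 K27M and 1 of 5 WT tumours.

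**Figure D3:**
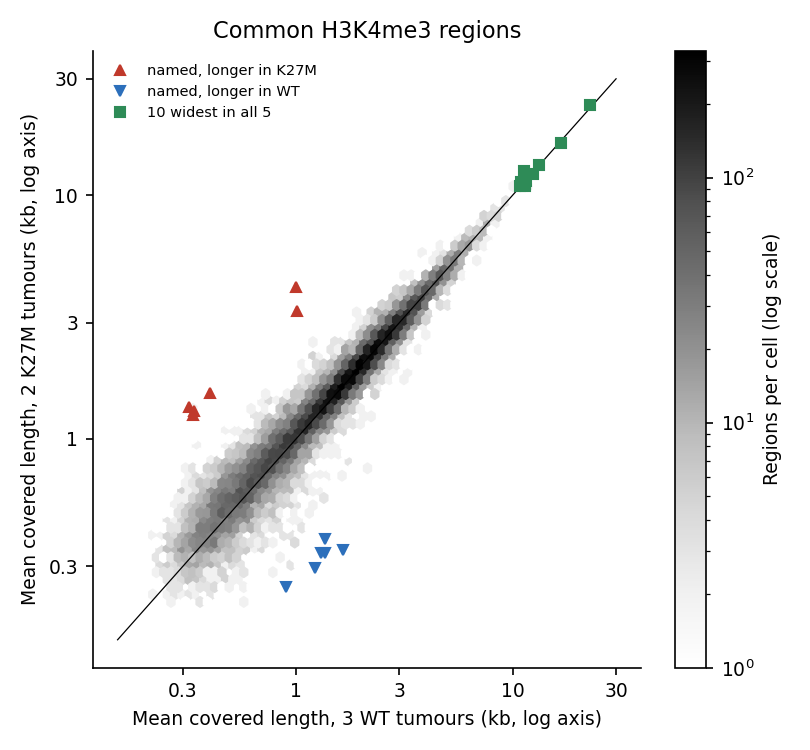
Mean covered length of the 19448 common regions in the 2 K27M tumours (y axis, kb, log) against the 3 WT tumours (x axis, kb, log), shaded by the number of regions, with the line of equal length. Most regions lie along the line, the 10 widest (squares) sit on it, and the named longer and shorter regions (triangles) lie off it below 5 kb.

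**Figure D4:**
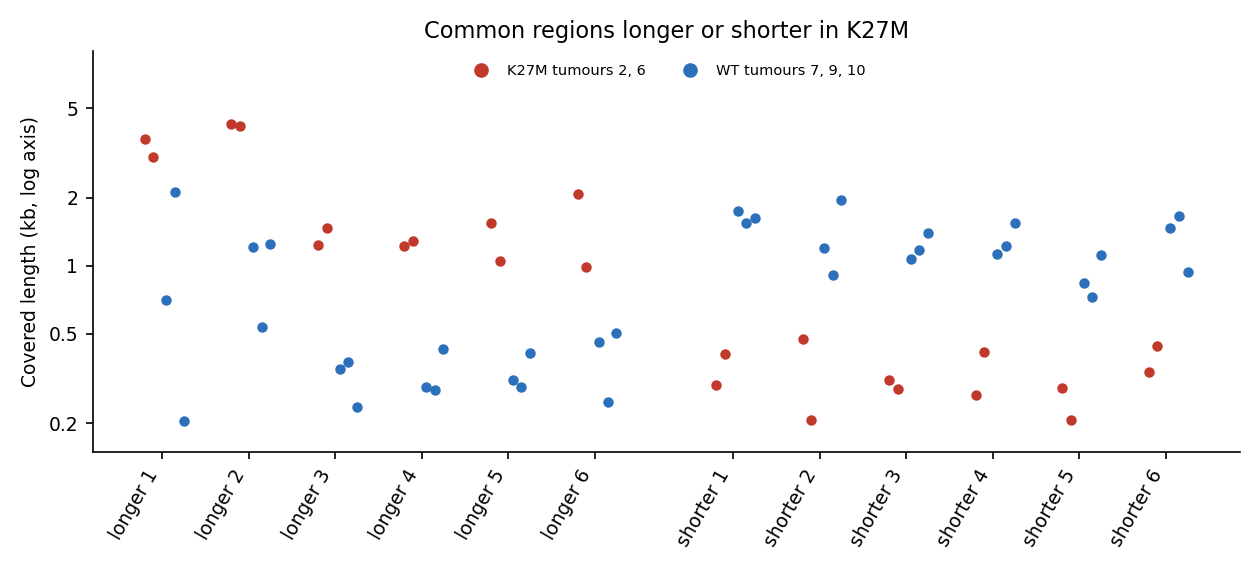
Covered length in kb (y axis, log) of the 6 named common regions longer and the 6 shorter in K27M, 1 point per tumour, ordered by the absolute difference. The colours do not overlap at any region, as the naming rule required, and no region passed the adjusted test.

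Rank within the lists gave a similar count. Regions were ranked by the fold enrichment of their strongest peak among the common regions of each tumour, and the ranks were turned into normal scores. Limma called 0 regions (0.0%), the smallest adjusted p was 0.786, and 1057 regions (5.44%) had an unadjusted p under 0.05, with 476 higher and 581 lower in K27M. The groups did not overlap at 1949 regions (10.0%) ranked higher in K27M and 2055 (10.6%) ranked lower. These shares, too, are near the 0.1 per direction that an order without regard to genotype gives. Of the regions apart by length and longer in K27M, 422 were also apart by rank and higher, which is 20.3% of the first set and 21.7% of the second. In the opposite direction 417 regions were shared, 19.1% and 20.3%.

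The top 1000 of the lists overlapped more by breadth than by strength. Of the 1000 common regions with the largest covered length in each tumour, 668 were among the 1000 of all 5 tumours. Any pair of tumours shared 784 to 860, and the K27M pair shared the most, 860. By fold enrichment only 15 regions were in the top 1000 of all 5, and a pair shared 255 to 348. By this measure the K27M pair shared 294, inside the range of the other pairs. Further down the lists the overlap by strength was larger, at 63.3% to 66.1% of the top 5000 for a pair. Over all common regions the Spearman correlation of fold enrichment was 0.853 to 0.870, highest for the K27M pair. Strong peaks differed little in strength: the highest fold enrichment was 1.33 to 1.48 times that of the region ranked 1000 in the 5 lists. By -log10 q, 96 regions were in all 5 top lists, a pair shared 354 to 458, and the K27M pair shared 452. Whether the K27M pair is more alike than other pairs was not tested. Only 90 to 139 regions per tumour were in the top 1000 by both breadth and strength. Broad peaks still ranked high by fold enrichment. Within the lists, peaks of 5 kb or more had a median percentile of 83.4 to 88.4. Peaks of 1 to 5 kb had 76.3 to 78.5, and peaks under 1 kb had 27.3 to 29.4.

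Examples follow from the regions that the naming rule took for a large shift in rank. A difference in strength was fixed by that choice, so they do not bear on how well the lists agree. At chr3:58217633-58225793 the fold enrichment was 47.9 and 66.7 in K27M tumours 2 and 6, and 39.3, 35.6 and 24.8 in WT tumours 7, 9 and 10, while the covered lengths were 7140 to 8161 bp in all tumours. At chr11:29071542-29074766 it was 40.6 and 43.7 in K27M, and 66.4, 50.0 and 62.6 in WT, with 2825 to 3087 bp covered. Both were strongly marked in every tumour, and H3K27ac was present in all 11.

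A different kind of change was seen at chr6:52165111-52168296. The covered length was 897 and 606 bp in K27M and 3186, 950 and 2194 bp in WT, and the fold enrichment 3.87 and 5.14 against 38.3, 7.81 and 30.1. This placed it between percentiles 1.00 and 5.64 of the common regions in K27M and between 23.7 and 74.6 in WT, where male tumour 9 was the lowest. The difference in rank score was -2.02 (SE 0.45, limma adjusted p = 0.786). H3K27ac was found in 2 of 6 K27M and 3 of 5 WT tumours, over 5.01% and 50.7% of the length.

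H3K27ac lay on H3K4me3 peaks according to their breadth and not detectably according to genotype. In the same tumour an H3K27ac peak overlapped 43.9% and 46.8% of H3K4me3 peaks under 1 kb in K27M, and 46.0%, 37.8% and 55.1% in WT. For peaks of 1 to 5 kb the shares were 92.7% and 93.0% against 92.3%, 90.7% and 94.3%. For peaks of 5 kb or more they were 100% and 99.6% against 99.6%, 100% and 100%. WT tumours 9 and 10 held the lowest and highest shares of narrow peaks, and these 2 tumours also had the shortest and longest H3K27ac lists of the WT tumours with H3K4me3, at 40070 and 58164 peaks. The part of list length in the spread was not tested. Two-sided exact permutation tests gave p = 0.8, 0.7 and 1.0 for the 3 classes.

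Where both marks were separated by genotype, they were separated in the same direction. H3K27ac was called in both profiled K27M and none of the profiled WT tumours at 35 of the 735 K27M-only regions (4.76%), against 0.891% of all merged regions, and the opposite pattern occurred at 0. At the 206 WT-only regions H3K27ac followed in the same direction at 21 (10.2%), against 0.805% of all merged regions, and in the opposite direction at 0. No H3K27ac was called in any of the 11 tumours at 340 K27M-only regions (46.3%) and 78 WT-only regions (37.9%). At 1 region, chr12:32396815-32397911, H3K4me3 was K27M-only with 1097 and 973 bp covered, and H3K27ac was present in all 6 K27M and none of the 5 WT tumours. These counts use the same tumours for both marks.

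The 6 tumours without an H3K4me3 list gave a separate look at the separated calls. In K27M tumours 1, 3, 4 and 5, H3K27ac was present at 29.5%, 25.03%, 17.8% and 22.7% of the K27M-only calls and at 33.0%, 18.4%, 14.1% and 15.0% of the WT-only calls. In WT tumours 8 and 11 it was present at 15.6% and 17.7% of the K27M-only calls and at 25.7% and 21.8% of the WT-only calls. The share at K27M-only calls exceeded that at WT-only calls in 3 of the 4 K27M tumours, and fell below it in tumour 1 and in both WT tumours.

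The difference between these shares was -3.49, 6.59, 3.75 and 7.67 percentage points in the K27M tumours and -10.1 and -4.16 in the WT tumours, with means of 3.63 ± 5.02 (SD, n = 4) and -7.12 ± 4.19 (SD, n = 2). The groups did not overlap and were 10.7 points apart, with p = 0.0667 by the two-sided exact permutation test, which is the smallest value that 4 against 2 tumours allow. It does not pass 0.05. In the 5 tumours that defined the calls the same quantity was 35.2 points. For reference, H3K27ac was present in the 6 tumours at 18.9% to 33.7% of the regions called in 2 lists and 21.2% to 37.9% of those called in 3, so a difference below 0 is usual for such sets. The shares taken singly differed less, by 7.11 points at K27M-only calls (exact p = 0.133) and -3.64 points at WT-only calls (exact p = 0.667).

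Sex and the choice of calls limit how this value can be read. WT tumours 8 and 11 and K27M tumour 5 were labelled female and K27M tumours 1, 3 and 4 male. Within females the differences were 7.67 in K27M tumour 5 against -10.1 and -4.16 in WT, and no WT male was among the 6. When the calls were defined without 1 of the 5 H3K4me3 lists, the difference between groups was 7.43 points without tumour 2, 0.234 without tumour 6, 8.72 without tumour 7, 6.999 without tumour 9 and 7.80 without tumour 10. The smallest value came without K27M tumour 6, the female K27M tumour. Without tumour 2 or tumour 6 the K27M-only calls rest on a single K27M list. The cause of the drop without tumour 6 was not tested.

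**Figure D5:**
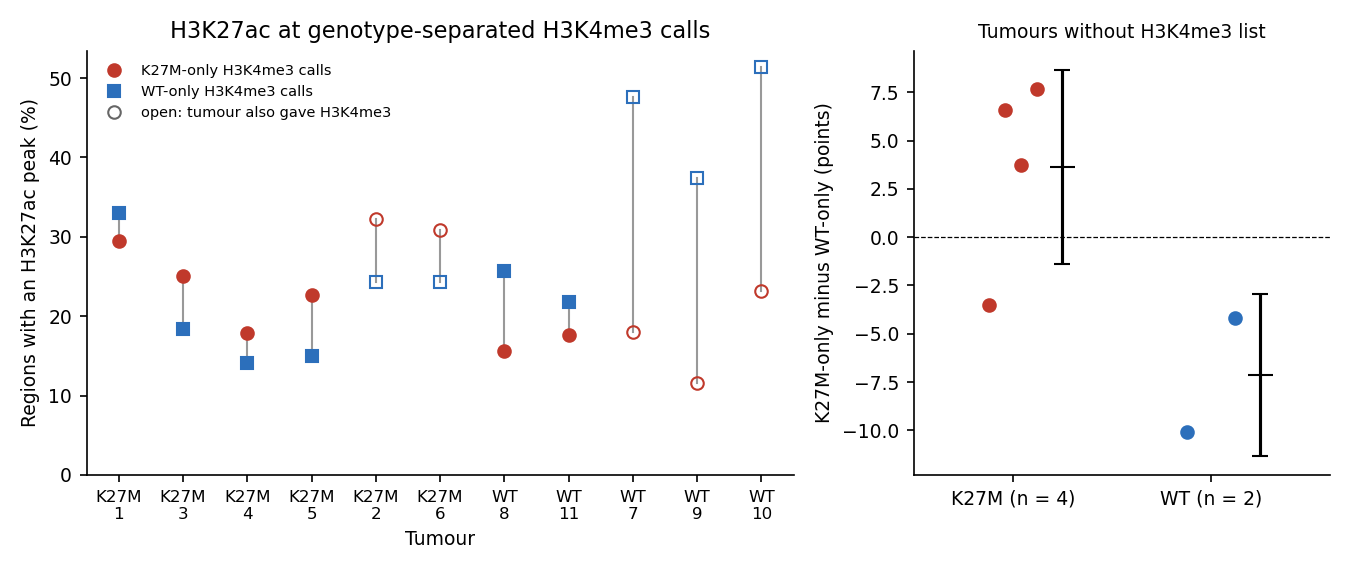
Left, percent of K27M-only (circles) and WT-only (squares) H3K4me3 calls with an H3K27ac peak (y axis) in each of 11 tumours (x axis), with open symbols for the 5 tumours that defined the calls. Right, the difference between the shares in the 6 other tumours with mean and SD, where K27M tumours lie from -3.49 to 7.67 and WT tumours at -10.1 and -4.16.

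The same contrast was drawn for 3 further sets of regions after the data had been seen, as the mean percent of region length under H3K27ac. At the 16 regions separated at 5 kb, the 6 other tumours differed by 23.2 points, with differences between the sides of 8.42 to 21.0 points in K27M and of -8.47 and -13.9 points in WT (exact permutation p = 0.0667). This value came mainly from the 3 regions whose genotypes lay 1 kb or more apart in H3K4me3. Over the other 13 it was 5.21 points with overlapping groups (exact permutation p = 0.533), and H3K27ac differed in the direction of H3K4me3 at 7 of them. At regions apart by covered length the difference was 4.97 points (exact p = 0.2), and at regions apart by rank 3.22 points (exact p = 0.0667). The groups did not overlap for the first and last of these. Over this set of 4 tests the adjusted p was 0.0889 where the raw value was 0.0667 and 0.2 for covered length (exact permutation tests).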

How the data were processed

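H3K4me3 and H3K27ac chromatin immunoprecipitation libraries were made from snap-frozen tumours with Drosophila S2 chromatin added, and ChIPs could be pooled into a library, per the labels' protocols. No spike-in factor was used here, so absolute amounts were not measured. Build mm9, MACS2, SICER 1.1, bedtools 2.25.0, SAMtools, BWA 0.7.12, R 2.14.0 and Picard are named in the submitters' processing notes, without their roles. The deposited lists, 1 per sample, are narrowPeak tables. For each peak the authors deposited a score and the caller's fold enrichment ratio, with -log10 values of p and of q. The deposited -log10 q was 2 or more throughout. The summit offset of each peak was not used. Fold enrichment and q served to rank or filter peaks within a list.

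Peaks of the 5 lists sharing 1 bp were merged. Coverage, calls, breadth (limits 1 and 5 kb) and ranks were computed in Python 3.11.15 with numpy 2.4.6, pandas 2.3.3 and SciPy 1.17.1, and figures with matplotlib 3.10.9. Regions called in all 5 lists were tested with limma 3.58.1 in R 4.3.3. List measures were tested by exact permutation and calls by Fisher's exact test, all two-sided with a threshold of 0.05. Scripts were tested on simulated data. Depth is not given in the sources used here, so no counting interval applies.

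The comparison, region rules and gene lists were chosen with earlier results of these data known. The naming rule took the 10 widest regions called in all tumours, 8 separated calls per direction by mean percentile of -log10 q, 6 regions per direction separated at 5 kb, and 6 per direction with the largest difference in length and in rank among those whose groups did not overlap, since none passed the threshold. The single region separated in both marks was chosen after its values were seen. The reference used here is of build GRCm38, so no gene, promoter sequence or marker list was matched to positions, and the gene lists and cell type markers were not applied. Alternatives were stricter or equally long lists, joined peaks, coverage limits, other scalings, sex and left-out tumours.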

Additional observations from a re-analysis of the deposited data

Results flagged for a closer look

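In K27M tumour 1 the share of K27M-only minus WT-only calls with H3K27ac was -3.49 points, far from the 3.75 to 7.97 points of the other 5 K27M tumours. Tumour 1 also stood apart from the other 3 K27M tumours without an H3K4me3 list in H3K27ac length at regions shorter in K27M (58.4%), at regions ranked higher in K27M (54.0%) and at those ranked lower (53.4%). Its H3K27ac list was the longest of the 11, with 60274 autosomal peaks, and the part of list length was not tested. Among the 4 K27M tumours without an H3K4me3 list, tumour 3 stood apart at the regions separated at 5 kb, with a difference between the sides of 21.0 points. K27M tumour 6, which gave an H3K4me3 list, had 23.1 points there. Chance flags about 1 in 20 groups by this test of gaps.

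The male tumours (2 against 9) and the female tumours (6 against 7 and 10) differed in opposite directions in 10 of the 11 list measures, on the log2 scale of K27M over WT. In 7 of them tumour 6 lay outside both female WT tumours. There the male and female values were 0.27 and -0.032 for peak number, 0.20 and -0.031 for covered length, 0.38 and -0.045 for the number of narrow peaks, 0.11 and -0.013 for their share, and 0.41 and -0.053 for their length. For peaks of 1 to 5 kb they were 0.13 and -0.012 in number and -0.14 and 0.020 in share. In the other 3 measures tumour 6 lay between the female WT tumours, and the values were 0.14 and -0.012 for the length of peaks of 1 to 5 kb, 0.26 and -0.21 for the number of broad peaks, and 0.25 and -0.20 for their length. With 1 male tumour per genotype these differences were not tested.

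On the Y chromosome, which the comparison left out, 3 H3K4me3 peaks were called in K27M tumour 2, labelled male, and 0 in the other 4 tumours, WT tumour 9 among them, which is also labelled male. The X chromosome held 794 peaks in tumour 9, 875 in tumour 2 and 908 to 945 in the 3 female tumours.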

How the results depend on the processing

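No paired analysis was possible because the tumours of the 2 genotypes share no replicate number. Of 237 values for whole comparisons under alternatives, 193 kept their direction and side, 27 reversed and 17 moved, and no alternative gave a region past an adjusted test. In female tumours alone the log2 ratio of K27M to WT turned to -0.032 for peak number and -0.031 for covered length, to -0.045, -0.013 and -0.053 for number, share and length of narrow peaks, and to -0.012, 0.020 and -0.012 for those of 1 to 5 kb. In males alone it was 0.26 for the number and 0.25 for the length of broad peaks. With lists of equal length it was -0.033 for number and share of narrow peaks and 0.038 for the share of 1 to 5 kb. Regions broad in WT only numbered 2 by the widest single peak. With stricter H3K27ac lists the share on peaks of 1 to 5 kb differed by -0.0038 points. Leaving out 1 tumour gave ranges over which several values changed sign or size. Covered length ran from -0.011 to 0.098, peaks of 1 to 5 kb from -0.0036 to 0.063 in number, -0.10 to 0.0022 in share and -0.018 to 0.073 in length, and broad peaks from -0.22 to 0.17 in number, -0.25 to 0.054 in share and -0.22 to 0.18 in length. K27M-only calls ran from 918 to 3733 and WT-only calls from 410 to 788, and regions broad in 1 genotype from 11 to 27 for K27M and 10 to 25 for WT. H3K27ac shares differed by -5.19 to 3.44 points on narrow peaks, -0.45 to 1.38 on those of 1 to 5 kb and -0.25 to 0.14 on broad ones. Fewer tumours make a separated call easier to meet, and the cause of the other changes was not tested. A K27M tumour left alone was assumed by limma to vary like the others. Of values for single regions, 363 were counted as the same, which does not mean equal in size, and 9 lengths moved. A further 2 calls were lost: chr4:99111880-99112907 when peaks had to cover 25% of the region, and chr6:6812513-6813114 when peaks were joined. Depth was unknown, so its effect on the lists was not tested.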

Other observations

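Separated calls occurred singly for the most part. Within 10 kb of another call of the same kind lay 40 of the 735 K27M-only regions (5.44%), in 19 runs, and 26 of the 206 WT-only regions (12.6%), in 12 runs. The longest runs held 3 regions. A WT-only run at chr5:108150323-108155771 covered 3089, 3561 and 3480 bp in WT tumours 7, 9 and 10, and no H3K27ac was called there in any of the 11 tumours. At chr17:26976057-26987654 a second WT-only run covered 1846, 1671 and 1968 bp, also without H3K27ac. A K27M-only run at chr19:55820651-55825210 covered 1464 and 1604 bp in tumours 2 and 6, and H3K27ac was present in 5 of 6 K27M tumours and none of the 5 WT tumours. A K27M-only run of the same number of regions at chr9:72543181-72544712 covered 627 and 1100 bp, with H3K27ac in 1 of 6 K27M and 1 of 5 WT tumours. These runs were chosen by their number of regions after the values had been seen.

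The 2 regions broad in all 5 tumours that lacked H3K27ac in some tumour were chr13:102521147-102530608, with H3K27ac in 5 of 6 K27M and 4 of 5 WT tumours, and chr14:58688859-58695901, with H3K27ac in 1 of 6 K27M and 3 of 5 WT tumours. The latter carried 6708 and 6700 bp of H3K4me3 in K27M, and 6606, 5227 and 6683 bp in WT.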
